A study of Mus musculus with 18 samples.

Results

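The results concern 8 imprinted genes of the 32285 genes counted in single cells of mouse skin: Meg3, Rian, Mirg, B830012L14Rik, Dlk1, H19, Igf2 and Cdkn1c. They were chosen by symbol in all 10 mRNA matrices, with earlier measurements of these samples in view, so their levels by cell class and the difference between arms in fibroblasts are given as a description. The study compared control skin with skin stretched by a hydrogel under it (the expander). Mice of both arms underwent surgery, a cut close to the tail from which a subcutaneous passage was made up to the neck, and only the expanded arm received the gel. DAPI-negative cells, labelled as all skin cells, were sorted. Strain, age and genotype are not given in the labels used here. Each arm had 5 libraries: 2 of day 1, 2 of day 2 and 1 of day 4, each from a sequencing round in which the mice of an arm were pooled in 1 tube, and libraries are named here by day and round.

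Genomic imprinting leaves a gene active mainly on the copy inherited from 1 parent. In the Dlk1-Dio3 region, the noncoding RNAs Meg3, Rian and Mirg are expressed from the maternal copy and carry many small RNAs in their transcripts, while Dlk1, a transmembrane protein related to Notch ligands that holds back adipocyte differentiation, is expressed from the paternal copy. H19, a noncoding RNA, and Igf2, a growth factor, share another imprinted region in which H19 is maternal and Igf2 paternal. Cdkn1c encodes the cyclin-dependent kinase inhibitor p57 and is maternal. The counts do not separate the parental copies, so nothing below measures imprinting itself.

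The noncoding RNAs of the Dlk1-Dio3 region lie on 1 strand in a row (GENCODE annotation of GRCm38, which is mm10). Meg3 spans chr12:109541001-109571726, Rian chr12:109603940-109661716, B830012L14Rik chr12:109695586-109702587 and Mirg chr12:109729764-109749460, all on the plus strand and 208.5 kb from end to end. Between the start of Meg3 and the end of Mirg the RefSeq table places 106 mature miRNAs on that strand, of which 26 lie within Mirg, 6 within Rian and 3 within Meg3. Dlk1 lies upstream at chr12:109452823-109463336, and 77.7 kb separate its end from the start of Meg3. H19 (chr7:142575529-142578143), Igf2 (chr7:142650766-142666816) and Cdkn1c (chr7:143458339-143461050) lie on the minus strand of chromosome 7. The 3′ counts do not include mature miRNAs. Meg3 and Mirg each overlap 1 annotated gene on the other strand, and whether the counting used strand is not given in the sources used here.

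The windows around the start sites of Meg3, Rian and Mirg are shown because these genes moved together in the fibroblasts described below. That of Dlk1 is shown because it lies next to them, and Dlk1 did not pass the filter on low counts there. Each holds 250 bases before and 50 bases after a RefSeq start (GRCm38.p6), with capitals for motifs found by a search on both strands, and 5 of the 8 genes had at least 1 window. The motifs were the cAMP response element TGACGTCA, the AP-1 site TGANTCA, the TATA box TATAAA and the CCAAT box CCAAT.
Meg3 (plus strand, chr12:109540746-109541045): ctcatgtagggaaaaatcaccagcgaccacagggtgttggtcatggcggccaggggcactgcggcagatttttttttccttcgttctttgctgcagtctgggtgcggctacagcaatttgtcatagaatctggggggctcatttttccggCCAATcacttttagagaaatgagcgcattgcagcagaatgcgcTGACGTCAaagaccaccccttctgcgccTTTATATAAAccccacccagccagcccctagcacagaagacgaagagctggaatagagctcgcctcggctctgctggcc
Rian (plus strand, chr12:109603695-109603994): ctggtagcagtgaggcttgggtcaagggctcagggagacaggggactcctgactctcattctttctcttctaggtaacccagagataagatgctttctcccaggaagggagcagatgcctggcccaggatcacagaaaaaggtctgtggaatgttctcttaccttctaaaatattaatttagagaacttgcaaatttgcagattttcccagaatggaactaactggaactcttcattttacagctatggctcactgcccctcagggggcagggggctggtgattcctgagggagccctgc
Mirg (plus strand, chr12:109734731-109735030): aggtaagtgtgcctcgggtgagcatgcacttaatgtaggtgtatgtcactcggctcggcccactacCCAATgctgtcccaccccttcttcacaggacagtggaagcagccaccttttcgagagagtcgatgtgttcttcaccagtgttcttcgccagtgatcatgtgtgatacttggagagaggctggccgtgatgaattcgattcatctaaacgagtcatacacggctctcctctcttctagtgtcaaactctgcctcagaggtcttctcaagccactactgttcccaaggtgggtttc
Dlk1 (plus strand, chr12:109452573-109452872): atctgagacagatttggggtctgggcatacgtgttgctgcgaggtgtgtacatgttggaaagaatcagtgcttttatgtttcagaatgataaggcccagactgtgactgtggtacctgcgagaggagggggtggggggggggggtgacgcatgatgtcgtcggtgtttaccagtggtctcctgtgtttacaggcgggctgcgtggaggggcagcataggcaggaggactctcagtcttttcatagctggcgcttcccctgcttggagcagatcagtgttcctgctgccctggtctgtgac

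The Meg3 window holds the cAMP response element at -57, overlapping TATA boxes on both strands at -29 and -25, and a CCAAT box at -100, counted in bases from the start site. Of all 32851 windows, 1.79% hold that response element, 13.6% the TATA box, 37.4% the CCAAT box and 7.81% the AP-1 site. The Mirg window has a CCAAT box at -184 and lies inside the GENCODE gene, since the RefSeq start is downstream of the GENCODE one. The Rian and Dlk1 windows shown hold none of these letters. The Meg3 window has 13 CpG dinucleotides and the Rian window 0, against a median of 7 over all windows. These are descriptions of sequence, and binding was not measured.

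Gene UMIs (unique molecular identifiers, 1 per captured molecule) per library ran from 17726739 to 75470722. After filters, 45488 cells remained, 28452 control and 17036 expanded, in 39 clusters. Marker genes named 30 clusters as 17 cell classes, and 9 clusters with 3866 cells stayed unnamed. The fibroblast-like class held 15659 cells (12675 control, 2984 expanded) in 9 clusters, each of which carried at least 6 of the 7 fibroblast markers. Between any pair of libraries at most 23 cell barcodes were shared. In fibroblast-like cells the median was 7586 to 13430 UMIs per cell in control libraries and 9077 to 14757 in expanded ones. Levels below are CPM, the UMIs of a gene summed over the cells of a class in a library and scaled to a common total, with the mean and SD over libraries with at least 20 cells. Mice were pooled, so the spread between libraries is not the spread between single animals.

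In control skin Meg3 was highest in fibroblast-like cells, at 1664 ± 285 CPM (SD, n = 5). The next classes were smooth muscle-like cells at 493 ± 151 (n = 5), dermal papilla-like cells at 463 ± 378 (n = 4) and Schwann-like cells at 288 ± 79.8 (n = 4). Of these 3 neighbours in the order, smooth muscle-like (371 to 719) and Schwann-like cells (186 to 363) did not overlap in range. Dermal papilla-like cells (215 to 1027) overlapped both. The lowest fibroblast library (1210) stood above the highest library of any of the 3 (1027, dermal papilla-like, from 21 cells). Skeletal muscle or satellite-like cells had 158 ± 52.7 (n = 3) and lymphatic endothelial-like cells 136 ± 161 (n = 5). The other 11 classes had means between 13.8 CPM in dendritic-like cells and 35.8 CPM in endothelial-like cells. Rian had the same leading class, with 550 ± 98.5 CPM in fibroblast-like cells and 111 ± 70.0 in smooth muscle-like cells (n = 5 each).

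**Figure D1:**
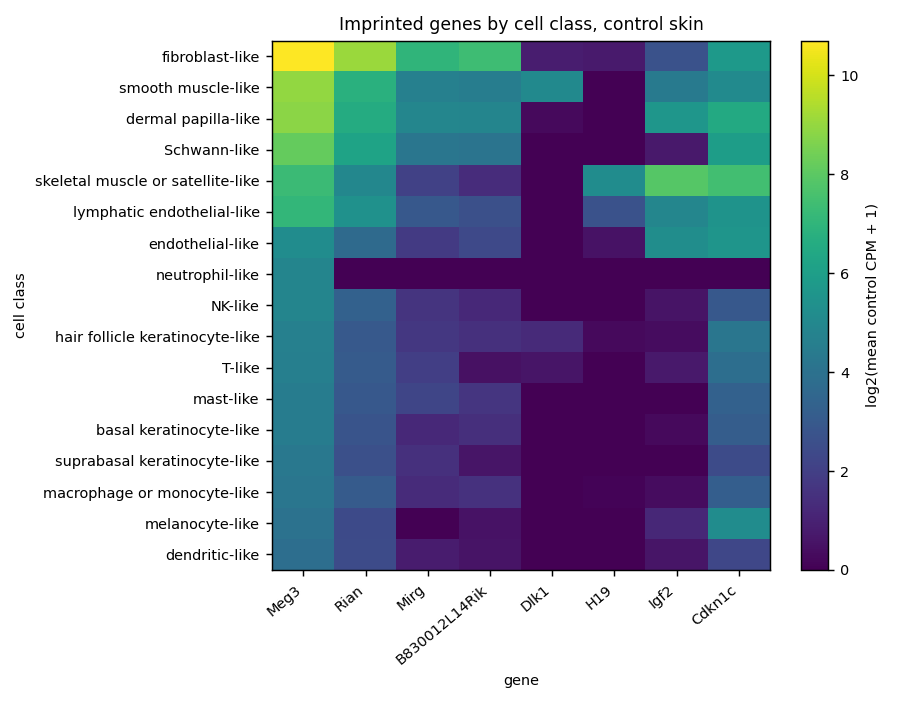
Mean control level of each of the 8 genes (columns) in each of the 17 cell classes (rows), as log2(mean control CPM + 1) on a colour scale. The 4 noncoding RNAs of the Dlk1-Dio3 region share their brightest row, fibroblast-like cells, while Igf2, H19 and Cdkn1c are brightest in skeletal muscle or satellite-like cells and Dlk1 in smooth muscle-like cells.

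Cdkn1c and Igf2 had another order. Skeletal muscle or satellite-like cells had 233 ± 112 CPM of Igf2 and 176 ± 262 of Cdkn1c (n = 3), the latter with a range of 20.4 to 479. For Igf2, dermal papilla-like (47.9 ± 19.8, n = 4), endothelial-like (36.7 ± 18.0, n = 5) and lymphatic endothelial-like cells (29.0 ± 13.3, n = 5) followed with overlapping ranges, and fibroblast-like cells had 5.51 ± 2.22 (n = 5). For Cdkn1c, dermal papilla-like (89.9 ± 42.2, n = 4), Schwann-like (60.7 ± 15.2, n = 4), fibroblast-like (54.9 ± 12.1, n = 5) and endothelial-like cells (47.5 ± 13.5, n = 5) did not separate beyond their spread. The satellite-like class held 169 control cells.

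Across the 17 classes, the genes whose control level was most like that of Meg3 were Bgn and Fstl1 (Pearson r = 0.957 each), Pcolce (0.956), Col6a2 (0.952) and Col5a1 (0.947), of 7421 genes compared on log2(CPM + 1). Bgn encodes the matrix proteoglycan biglycan, Pcolce an enhancer of procollagen processing, and Col6a2 and Col5a1 are collagen chains. Rian and Mirg had r = 0.927 and B830012L14Rik 0.918, against 0.593 for Igf2. For Cdkn1c they were Sec63 (0.954), Zbtb20 (0.953), Nectin3 (0.952), the imprinted gene Peg3 (0.924) and Camk2n1 (0.921), of 6886 genes. The 17 points share libraries and differ in depth, so these values are a description.

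In fibroblast-like cells all 4 noncoding RNAs were lower with expansion in every one of the 5 pairs of the same day and round. Meg3 stood at 1685 and 1713 CPM in the control libraries of day 1 (rounds 1 and 2), 2004 and 1210 on day 2 and 1709 on day 4. In the expanded libraries it was 525 and 405 on day 1, 343 and 309 on day 2 and 399 on day 4. The arms did not overlap, and the control library of day 2, round 2 was the lowest control.

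Rian had 541, 630, 565, 387 and 625 CPM in the control libraries in that order, and 169, 119, 104, 111 and 153 in the expanded ones. B830012L14Rik, a long noncoding RNA between Rian and Mirg, had 167, 191, 169, 109 and 182 against 36.5, 32.4, 23.6, 22.1 and 34.7. Mirg had 165, 145, 167, 57.2 and 95.9 against 18.7, 16.7, 15.6, 8.11 and 9.29. For none of these did the arms overlap.

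**Figure D2:**
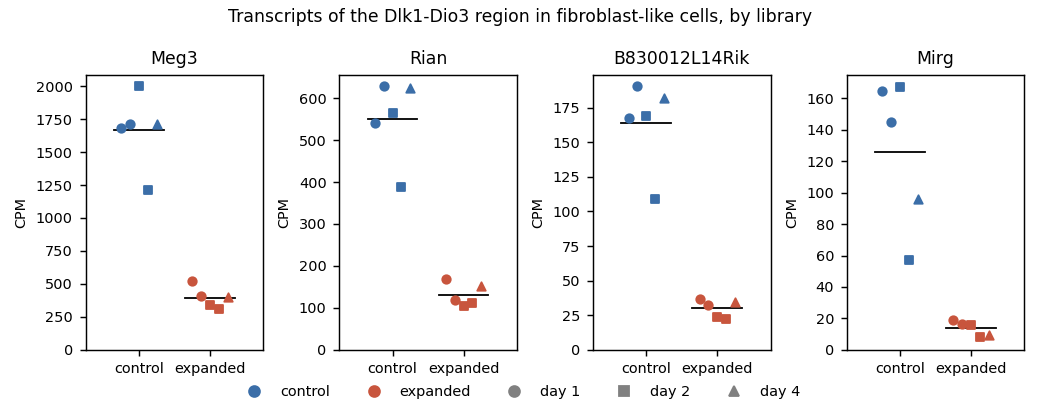
CPM of Meg3, Rian, B830012L14Rik and Mirg in fibroblast-like cells (1 point per library, shape by day, line at the mean of the arm). Every expanded point lies below every control point in each panel.

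With day as a covariate, edgeR's quasi-likelihood test called all 4 lower among the 6 members that passed the filter on low counts. The members were chosen with measurements of these samples in view. Calls in this class, its clusters, days and mice are therefore a description and not independent support. Called means a Benjamini-Hochberg adjusted p under 0.05 over all genes tested. The log2 differences (expanded minus control, ± SE) were -2.34 ± 0.17 for Meg3, -2.32 ± 0.15 for Rian, -2.71 ± 0.15 for B830012L14Rik and -3.44 ± 0.30 for Mirg. Of 12904 genes tested, 15.1% were called lower. Dlk1 and H19 did not pass the filter. Scaled by library size alone, the median over all genes rose from 0.025 to 0.263 and the called genes went from 1954 lower and 1809 higher to 1094 lower and 3895 higher, and Meg3 was at -2.09. Per cell, Meg3 went from 18.3 ± 4.63 to 5.60 ± 1.91 UMIs (SD, n = 5 libraries each).

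Different clusters hold most of the class in each arm: clusters 0 (3985 cells), 5 (1875), 9 (1750) and 8 (1622) of the 12675 control cells, and clusters 7 (1120), 5 (480) and 13 (372) of the 2984 expanded cells. Rian, Mirg, B830012L14Rik and Igf2 were among the 2000 genes used to cluster, and Mirg and B830012L14Rik are among the leading genes of cluster 0. With imprinted genes left out of the clustering, Meg3 was at -2.54 and Mirg at -3.54.

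Levels also differed between clusters within the class. In control libraries Meg3 averaged 2556 ± 485 CPM in cluster 0 (leading genes include Cpz and Col1a1), 1735 ± 227 in cluster 5 (Mme, Igfbp2), 1632 ± 302 in cluster 8 (Cilp, Cthrc1), 1594 ± 417 in cluster 9 (Ccl19, C3) and 1144 ± 245 in cluster 22 (Sfrp4, Cxcl13), with n = 5 for each. It averaged 847 ± 301 in cluster 20 (Acan, Lrrc15, n = 4), 432 ± 129 in cluster 30 (Apod, Myoc), 184 ± 45.5 in cluster 7 (Coch, Tnn) and 78.7 ± 31.7 in cluster 13 (Tnmd, Kera). Clusters 7 and 13, which hold many of the expanded cells, had the lowest Meg3 of the 9.

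Meg3 was called lower in all 4 clusters with enough cells for the test, by less than over the class. In cluster 5, Meg3 had 1661, 1802, 1764, 1411 and 2036 CPM in the control libraries and 776, 765, 580, 947 and 1073 in the expanded ones, without overlap. The log2 difference was -1.20 ± 0.15 for Meg3, -0.96 ± 0.18 for Rian, -1.47 ± 0.16 for B830012L14Rik and -2.53 ± 0.235 for Mirg, and -0.60 ± 0.15 for Cdkn1c. All 5 members tested there were called lower, beside 7.62% of the 9385 genes tested. Per cell in this cluster, Meg3 had 21.6 ± 4.46 UMIs in control and 15.5 ± 3.81 in expanded libraries, and Cdkn1c 0.483 ± 0.089 and 0.540 ± 0.106.

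In cluster 7, Meg3 went from 184 ± 45.5 to 88.6 ± 23.9 CPM (-1.09 ± 0.16) and Rian from 53.6 ± 19.3 to 18.7 ± 9.06 (-1.50 ± 0.26), both called, beside 5.06% of genes called lower. In cluster 30, Meg3 (-1.49 ± 0.27) and Rian (-2.55 ± 0.30) were called, beside 3.11% called lower. In cluster 13, Meg3 (-1.28 ± 0.26) was called and Rian (-2.20 ± 0.54) was not, beside 0.439% called lower.

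The remaining clusters had too few expanded cells to test, and cluster 22 had no expanded library with at least 20 cells. Meg3 in cluster 0 had 1087 and 1925 CPM in the 2 expanded libraries with at least 20 cells, against 1992 to 3117 in control. In cluster 8 the 3 expanded libraries had 287 to 794 against 1224 to 2028. In cluster 9 the 2 expanded libraries had 720 and 742 against 1147 to 2171. Cluster 20 had 604 CPM in its 1 expanded library (day 4, 33 cells), inside the control range of 508 to 1159, and Rian there was 166 against 105 to 296. An unnamed cluster of 648 cells, 84.6% of them expanded, carried all 7 fibroblast markers and Tnc and Cxcl5 among its leading genes. There Meg3 had 343 ± 61.4 CPM in 2 control and 259 ± 54.9 in 5 expanded libraries.

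**Figure D3:**
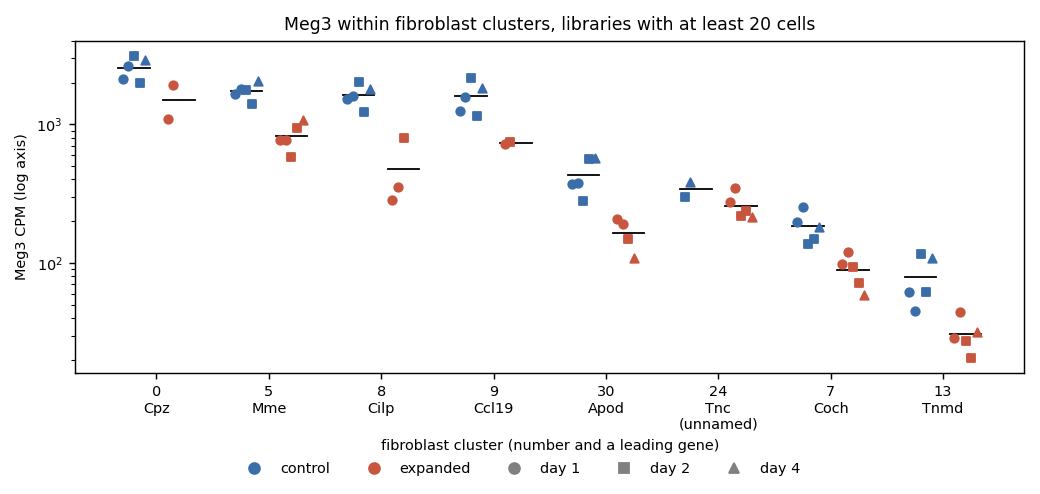
Meg3 CPM on a log axis in fibroblast clusters, named by number and a leading gene (1 point per library with at least 20 cells, shape by day, line at the mean of the arm). Expanded points lie below the control points within clusters 0, 5, 8, 9, 30, 7 and 13, and the clusters span from over 2000 CPM to under 100 CPM.

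By day, the differences of the 4 noncoding RNAs were within their errors of each other. On day 1 (2 against 2 libraries) Meg3 was at -2.17 ± 0.29, Rian at -2.32 ± 0.27, B830012L14Rik at -2.67 ± 0.25 and Mirg at -3.44 ± 0.52, all called, beside 2.73% of genes called lower. On day 2 they were at -2.50 ± 0.30, -2.34 ± 0.27, -2.79 ± 0.27 and -3.36 ± 0.54, all called, beside 1.65%. On day 4, with 1 library per arm and the spread taken from the other days, they were at -2.33, -2.27, -2.63 and -3.60 and not called, beside 0.0% of genes. The change from day 1 to day 2 was -0.33 ± 0.40 for Meg3 and 0.07 ± 0.705 for Mirg, and edgeR's quasi-likelihood test called 0.0% of 12904 genes for it.

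Hashtags, which mark the cells of a mouse, gave 14 control and 12 expanded mice with at least 20 fibroblast-like cells. The day 1, round 1 libraries had 0 cells assigned to a mouse and are not part of these values. Mice of an arm and round shared 1 tube, so they are not independent replicates and the errors below do not include that. Meg3 ran from 620.5 to 2584 CPM in control mice (median 1491) and from 60.2 to 1026 in expanded mice (median 234), so single mice overlapped. Rian ran from 249 to 912 (median 457) and from 6.34 to 475 (median 64.6). The log2 differences over mice were -2.45 ± 0.28 for Meg3, -2.52 ± 0.33 for Rian, -2.55 ± 0.32 for B830012L14Rik and -3.21 ± 0.27 for Mirg, all called, beside 19.8% of genes called lower. The fewest cells behind a mouse were 21 in the expanded arm and 72 in the control arm.

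Fewer cells carried the transcripts. With each cell thinned to 2000 UMIs, 63.5 ± 5.85% of control and 21.9 ± 3.51% of expanded fibroblast-like cells had a Meg3 UMI (SD, n = 5 each). Cells shallower than that were not used (286 of the control and 55 of the expanded arm). Unthinned, these shares were 75.6% and 37.1%. The thinned shares were 38.4 ± 4.73% and 9.43 ± 1.39% for Rian, 18.8 ± 3.11% and 2.80 ± 0.46% for B830012L14Rik, and 15.2 ± 4.54% and 1.69 ± 0.92% for Mirg. In T-like cells, which should lack Meg3, the thinned share was 2.84% in control and 0.0326% in expanded libraries, at median depths of 2735.5 to 5990 UMIs. In those expanded T-like cells, all 25 Meg3 UMIs came from 1 cell of 1221, which held 362 Col1a1 UMIs.

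The transcripts were found in the same cells. Among thinned control fibroblast-like cells with a Meg3 UMI, 56.3 ± 3.76% had Rian, against 7.02 ± 1.53% of those without. The shares were 28.3 ± 3.24% against 1.97 ± 0.46% for B830012L14Rik and 22.7 ± 5.87% against 1.52 ± 1.07% for Mirg, higher with Meg3 in 5 of 5 libraries for each. In expanded cells Rian was in 35.6 ± 4.39% against 2.16 ± 0.81%. Cdkn1c went the other way in control cells, with 7.20 ± 2.13% of cells with Meg3 and 14.3 ± 5.76% of cells without, and so did Igf2 with 0.56 ± 0.36% and 3.18 ± 1.47%. All these shares pool the clusters of the class, which differ in Meg3 (given above) and in Cdkn1c and Igf2 (given below). Whether either direction holds among cells of a single cluster was not tested.

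Set against Meg3, the proportions of Mirg and B830012L14Rik were lower in expanded fibroblast-like cells. Per 100 Meg3 UMIs there were 33.1 ± 3.59 Rian UMIs in control and 33.3 ± 3.83 in expanded libraries, lower in 1 of 5 pairs. Mirg had 7.38 ± 2.12 and 3.44 ± 0.95, lower in 5 of 5 pairs, and B830012L14Rik 9.83 ± 1.12 and 7.54 ± 0.79, lower in 5 of 5 pairs. Within cluster 5, Mirg had 6.56 ± 2.20 and 2.71 ± 1.57, and within cluster 7 it had 4.43 ± 1.24 and 2.79 ± 1.11, lower in 5 of 5 pairs in each. Other clusters did not all do the same. Mirg had 4.72 ± 1.23 and 4.06 ± 4.75 in cluster 13 and 2.82 ± 1.89 and 1.28 ± 0.998 in cluster 30, lower in 2 of 4 pairs in each. In the unnamed cluster with Tnc and Cxcl5 it had 0.967 ± 0.137 and 3.68 ± 2.05, lower in 0 of 2 pairs. Rian had 28.8 ± 5.17 and 20.3 ± 6.38 in cluster 7, lower in 5 of 5 pairs, but 29.9 ± 5.11 and 35.0 ± 4.39 in cluster 5, lower in 1 of 5 pairs. These ratios were not tested.

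Fibroblast collagen and nuclear RNA moved too. In fibroblast-like cells Col1a1, which encodes a chain of type I collagen, was at -2.14 ± 0.33, Col3a1 at -1.61 ± 0.21 and Dcn (decorin) at -0.59 ± 0.13, all called. Malat1, an abundant RNA retained in the nucleus, was at -0.67 ± 0.13 and called, while Neat1, another nuclear RNA, was at 0.02 ± 0.16 and not called. Meg3 had 5.56 ± 1.88 UMIs per 100 Col1a1 UMIs in control and 4.68 ± 1.42 in expanded libraries, lower in 5 of 5 pairs. Their part in the result was not tested.

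Over the whole fibroblast-like class, Igf2 and Cdkn1c did not follow the noncoding RNAs. The arms differ in their mix of clusters, as given above, and its part in these class values was not tested. Igf2 had 1.89, 7.64, 6.92, 5.48 and 5.63 CPM in control and 9.39, 26.8, 5.86, 14.8 and 10.3 in expanded libraries, higher in 4 of 5 pairs with overlapping arms. Its log2 difference of 1.03 ± 0.44 was not called with day as the covariate and was called with the replicate block, in which each pair of the same day and round is a block (1.07 ± 0.30). In the 2 clusters where it was tested it was not called. Cluster 13 went from 44.6 ± 12.3 to 23.7 ± 7.66 CPM (-0.92 ± 0.25) and cluster 7 from 34.2 ± 9.61 to 27.2 ± 16.7 (-0.31 ± 0.28). Expanded libraries were lower in 4 of 5 pairs in cluster 13 and in 3 of 5 pairs in cluster 7. In clusters 0, 5, 8, 9, 22 and 30 control means were between 0.40 and 1.62 CPM and expanded means, where there were at least 2 libraries, between 0.149 and 2.16. Igf2 was higher in 4 of 5 pairs in cluster 5 (14 control and 10 expanded UMIs) and in 4 of 4 pairs in cluster 30 (4 and 4 UMIs), where it was not tested.

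Cdkn1c had 57.0, 67.6, 65.0, 43.1 and 41.7 CPM in control and 58.6, 73.7, 63.0, 56.4 and 79.0 in expanded fibroblast-like libraries, with a difference of 0.04 ± 0.17 that was not called. Cluster 13 had the highest level, at 203 ± 39.1 CPM in control and 141 ± 25.6 in expanded libraries (-0.57 ± 0.16, not called). Cluster 30 had 108 ± 41.6 and 112 ± 13.6. Of the 4 clusters tested it was called in cluster 5 (39.0 ± 5.13 and 29.0 ± 5.68), and the difference between clusters was not tested. Among these 4, Cdkn1c was lower in 5 of 5 pairs in clusters 5 and 13, 4 of 5 in cluster 7 and 3 of 4 in cluster 30. The thinned share of cells with Cdkn1c was 9.72 ± 2.62% in control and 12.0 ± 1.81% in expanded libraries.

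**Figure D4:**
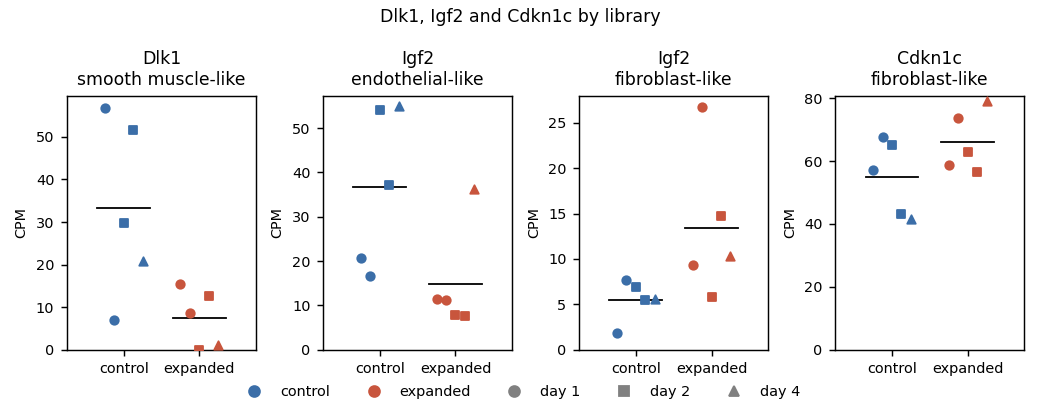
CPM of Dlk1 in smooth muscle-like cells, Igf2 in endothelial-like and in fibroblast-like cells, and Cdkn1c in fibroblast-like cells (1 point per library, shape by day, line at the mean of the arm). Arms overlap in all 4 panels, and control means are above expanded means for Dlk1 and endothelial Igf2.

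Outside the fibroblasts, Meg3 in Schwann-like cells did not differ beyond its error. They had 288 ± 79.8 CPM in 4 control and 289 ± 83.8 in 5 expanded libraries, a log2 difference of -0.07 ± 0.18. Rian had 73.0 ± 25.2 and 76.7 ± 46.0 (-0.22 ± 0.39). None of the 3 members tested there was called, beside 0.257% of genes in either direction. Mirg and B830012L14Rik did not pass the filter there and were not tested. Mirg had 17.3 ± 6.35 CPM in control and 3.78 ± 3.61 in expanded libraries (32 and 7 UMIs), lower in 4 of 4 pairs without overlap. B830012L14Rik had 16.3 ± 2.68 and 6.87 ± 5.68 (32 and 12 UMIs), also lower in 4 of 4 pairs, with overlapping arms. In the same cells Col1a1 was at -2.61 ± 0.35 and called. In the day 2, round 2 control, 71 of 282 Meg3 UMIs lay in 1 cell, which held 781 Col1a1 UMIs. The cell with the most Meg3 held 695 Col1a1 UMIs in the day 1, round 2 control and 433 in that of day 4, but 2 in that of day 2, round 1. In expanded libraries such cells held 0 to 4. There, 72 of 154 Meg3 UMIs of day 2, round 1 lay in 1 cell. The weight of these cells in the difference was not tested.

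The log2 ratio of fibroblast-like to Schwann-like Meg3 within a library was 2.65 in control and 0.39 in expanded libraries. That is a difference of -2.26, and for Rian it was -2.20. Against smooth muscle-like cells the differences were -1.51 for Meg3 and -1.21 for Rian, and against dermal papilla-like cells -1.19 and -1.16. The genes were chosen with the fibroblast values in view, so these differences are a description with no test. The Schwann-like values include the cells with high Col1a1 given above.

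The smooth muscle-like class was 1 cluster of 1099 cells that carried all smooth muscle and all pericyte markers, with the pericyte gene Rgs5 first among its leading genes, followed by Myh11 and Acta2. In a finer clustering 985 cells were pericyte-like and 113 smooth muscle-like, so the values of this class are largely those of cells that can also be called pericytes. They had 719, 387, 576, 412 and 371 CPM of Meg3 in control and 241, 154, 409, 251 and 497 in expanded libraries. The difference of -0.81 ± 0.30 was not called with day as covariate (edgeR adjusted p = 0.0755) and was called with the replicate block (edgeR adjusted p = 0.0402) and without the day 4 control library or the day 4 expanded library (-1.10 and -1.11). Per cell, Meg3 had 3.11 ± 1.28 UMIs in control and 3.75 ± 1.96 in expanded libraries. The median depth of these cells was 4510.5 to 6166 UMIs in control and 7163 to 14396.5 in expanded libraries.

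Dlk1 was found mainly in smooth muscle-like cells, with 56.9, 6.97, 29.7, 51.7 and 21.0 CPM in control and 15.4, 8.75, 0, 12.6 and 1.01 in expanded libraries (-2.35 ± 0.65, called). It came from 39 of 761 control and 11 of 338 expanded cells. Igf2 there went from 19.97 ± 3.02 to 11.7 ± 3.29 CPM, lower in 5 of 5 pairs without overlap (-0.91 ± 0.26, called). Per cell, Igf2 had 0.124 UMIs in control and 0.135 in expanded libraries, and Dlk1 0.219 and 0.0875. These were 2 of the 5 members tested in the class, beside 19.7% of genes called in either direction. With cells thinned to 2000 UMIs, 0 of the members were called, and 0 also without the control library of day 1, round 1 or that of day 2, round 2. After thinning, the filter on low counts was applied again, so members not called may not have been tested.

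In other cells Dlk1 was rare. Endothelial-like cells had 0 UMIs of it in every library, which allows up to 6.49 CPM (3 counts) in the library with the fewest counts, by counting error only. Fibroblast-like cells had 0.80 ± 0.69 CPM in control and 0.34 ± 0.29 in expanded libraries, and 45 of the 74 control UMIs came from 11 of the 644 control cells of cluster 22. H19 was highest in satellite-like cells, with 31 UMIs in 14 of 169 control cells (36.2 ± 19.9 CPM in 3 libraries). Lymphatic endothelial-like cells had 5.39 ± 3.67 CPM of H19 in control and 5.52 ± 4.10 in expanded libraries. In fibroblast-like cells, 50 of the 71 control H19 UMIs came from 1 cell of cluster 30, in the library of day 2, round 2.

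In endothelial-like cells Igf2 had 20.7, 16.6, 54.1, 37.2 and 55.0 CPM in control and 11.5, 11.2, 7.75, 7.53 and 36.2 in expanded libraries, lower in 5 of 5 pairs (-1.21 ± 0.28). Cdkn1c went from 47.5 ± 13.5 to 28.4 ± 8.93, also lower in 5 of 5 pairs (-0.77 ± 0.22). Per cell, Cdkn1c had 0.25 UMIs in control and 0.30 in expanded libraries. Igf2 UMIs per cell were higher with expansion in day 1, round 2 (42 in 409 cells against 30 in 370 control cells). They were also higher on day 4 (76 in 189 against 121 in 417), and lower in the remaining pairs. Meg3 went from 35.8 ± 27.4 to 3.39 ± 4.17 (-3.36 ± 0.57). All 3 members tested were called, beside 10.9% of genes in either direction. With cells thinned to 2000 UMIs, 0 were called, but the filter on low counts was run again there and may have left members untested.

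Low Meg3 counts fell in several classes together with collagen counts. Meg3 was called in basal keratinocyte-like cells (-3.48 ± 0.38, beside 18.3% of genes called in either direction), in dendritic-like cells (-3.31 ± 0.50, beside 19.4%) and in macrophage or monocyte-like cells (-3.26 ± 0.58, beside 25.2%). Col1a1 in these classes was at -5.17, -4.50 and -3.84, all called, and in endothelial-like cells at -3.03 and not called. With cells thinned to 2000 UMIs, Meg3 was called in none of these 4 classes (basal, dendritic, macrophage or monocyte, and endothelial). The filter on low counts was run again on the thinned counts, so Meg3 may not have been tested there. Hair follicle keratinocyte-like cells had -2.38 ± 0.65 for Meg3, not called, beside 0.858%. In control libraries 148 of 2616 macrophage or monocyte-like cells and 61 of 705 basal keratinocyte-like cells had a Meg3 UMI. Whether Meg3 UMIs in these classes came from the cells or from free RNA was not tested.

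**Figure D5:**
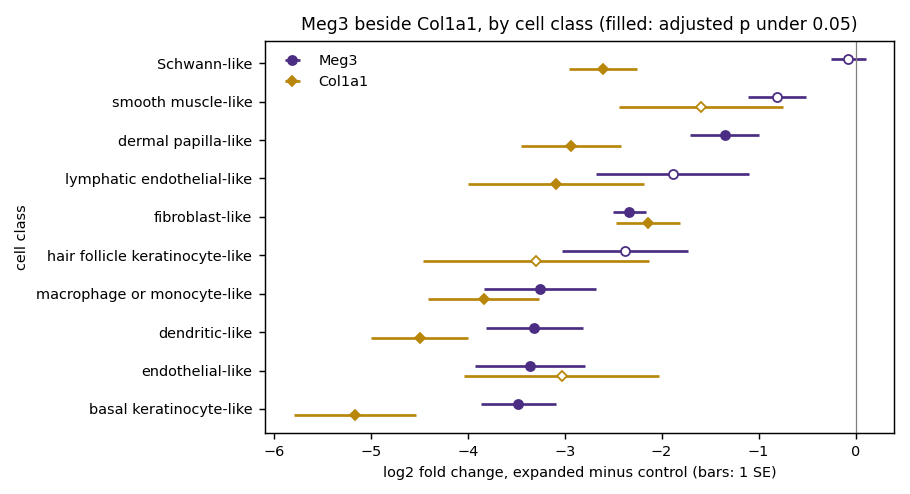
log2 fold change (expanded minus control) of Meg3 and Col1a1 in each cell class where Meg3 was tested (points, bars 1 SE, filled where the adjusted p is under 0.05). Schwann-like cells have Meg3 near 0 and Col1a1 at -2.61, whereas in basal keratinocyte-like, dendritic-like, endothelial-like and macrophage or monocyte-like cells both lie below -3.

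Dermal papilla-like cells, the hair follicle's mesenchymal signalling cells, had a Meg3 difference of -1.35 ± 0.36, called, as 1 of 4 members tested, beside 3.57% of genes in either direction. Its highest level, 1027 CPM in the day 2, round 1 control, came from 21 cells, and 103 of its 136 Meg3 UMIs lay in 2 cells. The cell with the most Meg3 (67 UMIs) held 644 of the 697 Col1a1 UMIs of the class in that library. Without that library the difference was -0.73 and not called, and it was not called under RLE scaling either. Igf2 there had 47.9 ± 19.8 and 39.5 ± 13.8 CPM, and Cdkn1c 89.9 ± 42.2 and 110 ± 42.1, neither called.

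Lymphatic endothelial-like cells had a Meg3 difference of -1.89 ± 0.79, and none of the 4 members tested was called, beside 12.0% of genes. In the expanded library of day 1, round 1, 154 of 179 Meg3 UMIs lay in 1 cell, which also held 1535 Col1a1 UMIs. In the control library of the same day and round, 151 of 156 Meg3 UMIs lay in 2 cells, and the cell with the most held 785 Col1a1 UMIs. Without the expanded library Meg3 was at -4.86 and called, without the control library it was at -1.74 and not called, and with the replicate block it was at -2.29 and called. Cdkn1c alone was tested in T-like cells (0.19 ± 0.53, beside 0.0843%) and in melanocyte-like cells (0.51 ± 0.35, beside 0.808%), and was not called in either.

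Other imprinted genes and related pathways were counted in fibroblast-like cells, where 15.1% of all genes tested were called lower and 14% (1809 of 12904) higher. The lists below are small, and no list was tested against these shares. Their values are over the whole class, whose mix of clusters differs between arms, and values within clusters are not given. Of 27 other paternally expressed genes 20 were tested, of which 8 were called lower and 0 higher, with a median log2 difference of -0.04 against 0.025 over all genes. Plagl1, a zinc finger transcription factor, was at -1.64 ± 0.17, with 26.3 ± 4.39 CPM in control and 10.1 ± 1.77 in expanded libraries. Peg3 (-0.79), Airn (-0.78), which overlaps Igf2r on the other strand, Ndn (-0.60), Snrpn (-0.75 ± 0.245) and Rasgrf1 (-1.62 ± 0.52) were lower too. Rasgrf1 had only 0.90 CPM in control and 0.37 in expanded libraries, and Snrpn 3.09 and 1.97. Of 22 other maternally expressed genes 14 were tested, 5 lower and 1 higher (median -0.31). Igf2r, the receptor that clears Igf2, was at -0.97 ± 0.13, Zim1 at -1.17, Tfpi2 at -1.03, Cd81 at -0.48 and Gnas at -0.38, with Osbpl5 higher at 0.39. Zim1 had only 1.78 CPM in control and 1.07 in expanded libraries.

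Of 18 genes that keep imprints or act on methylation in either direction 16 were tested, 3 lower and 1 higher (median 0.01), near the share over all genes for the lower ones. The maintenance methyltransferase Dnmt1 was higher (0.43 ± 0.12), and Dnmt3a (-0.48), Tet3 (-0.39) and Smchd1 (-0.31) were lower. Of 15 receptors, binding proteins and partners of Igf2, 14 were tested, 7 lower and 2 higher (median -0.47). The binding protein Igfbp4 was at 1.38 ± 0.19, with 139 ± 40.6 CPM in control and 430 ± 174 in expanded libraries, while Igfbp6 was at -1.12 ± 0.17 and the signalling adaptor Irs1 at -1.02 ± 0.20. Igf2bp3 (-0.84) and Igf2bp2 (-0.81), which bind Igf2 messenger RNA, were lower, as was Igf2r, given above.

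Of 17 Notch receptors, ligands and targets 12 were tested, 1 lower and 5 higher (median 0.50). Over all genes the higher calls went from 1809 to 3895 with scaling by library size alone, as given above. The target genes Hey2 and Nrarp were at 1.37 ± 0.34 and 1.19 ± 0.29, the receptor Notch3 at 1.14 ± 0.34, and the ligands Jag1 and Dll1 at 0.83 ± 0.22 and 0.63 ± 0.17, while the receptor Notch2 was at -0.64 ± 0.14. Hey2, Nrarp and Notch3 had control means under 1 CPM. Of 18 kinase inhibitors, cyclins and kinases of the cell cycle, all tested, 3 were lower and 2 higher (median 0.16), near the shares over all genes. Relatives of Cdkn1c were among them, with Cdkn1b at -0.74 ± 0.09 and Cdkn1a at -0.44 ± 0.13. The cyclin Ccnd2 was at -0.78 ± 0.19, while the inhibitor Cdkn2c was at 0.57 ± 0.12 and the cyclin Ccnd3 at 0.39 ± 0.12.

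Of 13 genes of adipocyte precursors and adipogenesis 12 were tested, 5 lower and 1 higher (median -0.65). The lipase Lpl was at -1.26 ± 0.23 and the transcription factor Cebpa at 0.47 ± 0.11. The transcription factors Zfp521 (-0.72), Cebpd (-0.69), Cebpb (-0.61) and Klf4 (-0.51) were lower. Of 13 markers of reticular and papillary fibroblasts, all tested, 5 were lower and 3 higher (median -0.17), with Dpp4 at -1.86 ± 0.19, Cd34 at -1.435 ± 0.185 and Col23a1 at 1.79 ± 0.15. Sfrp4 was at -2.16 ± 0.72, Ntn1 at -0.51 ± 0.15 and Apcdd1 at 0.50 ± 0.09. Sfrp4 is among the leading genes of cluster 22, which held 644 control and 34 expanded cells. It ran from 0.226 to 7.65 CPM in expanded libraries. Of 10 other long noncoding RNAs 7 were tested, 3 lower and 0 higher (median -0.56). Miat was at -2.17 ± 0.235, with 29.6 ± 6.56 CPM in control and 8.02 ± 2.52 in expanded libraries. Kcnq1ot1, itself an imprinted RNA, was at -0.58 ± 0.18, and Malat1 is given above.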

How the data were processed

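Counts of UMIs per gene and barcode, not normalized, were deposited by the authors for 10 single-cell libraries (10x Chromium 3′ v3.1 per the labels' protocols, Cell Ranger 6.1.2 and mm10 per the submitters' processing notes). Whether introns were counted is not given in the sources used here. Of 55174 barcodes, 47251 passed the filters (200 genes, 500 UMIs, no more than 10% of UMIs mitochondrial), and 1763 doublets (Scrublet in scanpy 1.11.5, or more than 1 hashtag) were removed. In 2 expanded libraries Scrublet marked 2 cells each, so doublets may remain. Cells were clustered on 2000 variable genes with 30 components and 15 neighbours (Leiden, leidenalg 0.10.2, resolution 1) and named by markers, so a difference from another annotation may come from the rebuilt names. Mice were assigned with HTODemux (Seurat 5.3.0, quantile 0.99).

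Counts were summed per class and library (at least 20 cells, 4 libraries per arm), passed through filterByExpr, normalised by TMM and fitted in edgeR 4.0.16 under R 4.3.3 (glmQLFit and glmQLFTest), day being the covariate. Called means a Benjamini-Hochberg adjusted p under 0.05 over all genes tested. The fit was tested on simulated data with 200 changed genes. Alternatives were RLE scaling, DESeq2 1.42.0, no filter, a replicate block, no covariate, thinned cells, mice as units, other clusterings, a mitochondrial limit of 5% and leaving out libraries.

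The labels name a shared sequencing round for each pair of libraries. Deviations of same-numbered libraries from the mean of their arm had correlations of 0.05 to 0.52 over 5 pairs. The mean of the day was not taken out, so these values include a shared day and do not show pairing by round. The day 2, round 1 control had 0.05 with its own partner, and its highest correlation was with the expanded library of day 1, round 2. The members and the gene lists were chosen with earlier results of these data known. All 8 members were named, and from each list at most 6 called genes by size of change. The 5 genes most like Meg3 and Cdkn1c were taken by correlation over classes, with at least 10 CPM in the member's highest class.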

Additional observations from a re-analysis of the deposited data

Results flagged for a closer look

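In 12 of 100 groups of 4 or 5 libraries, 1 library stood far from the others. The rule marks about 1 in 20 groups where values are independent and normally spread. These groups share libraries and some hold CPM near 0, so that share does not apply here. Meg3 in dermal papilla-like cells was 1027 CPM in the day 2, round 1 control against 215 to 317 in the others, and Rian there was 196 against 56.2 to 62.2. In that library the cell with the most Meg3 held 67 of its 136 UMIs and 644 of the 697 Col1a1 UMIs of these cells. In lymphatic endothelial-like cells the day 1, round 1 libraries stood out in both arms. Meg3 was 414 (control) and 313 (expanded) against 24.2 to 107 and 0.0 to 13.9, and Rian was 130 and 212 against 9.55 to 26.0 and 0.0 to 3.71. Meg3 was 5.83 in dendritic-like cells of the day 1, round 2 expanded library against 0.0 to 0.907, and 47.5 in macrophage or monocyte-like cells of the day 1, round 1 control against 5.63 to 16.9. For the dendritic-like value 14 of 16 UMIs lay in 2 cells, whereas 89 cells carried the macrophage or monocyte-like one. Igf2 in endothelial-like cells was 36.2 in the day 4 expanded library, with 28 of 76 UMIs in 1 cell, against 7.53 to 11.5. Cdkn1c there was 23.9 in the day 2, round 2 control against 50.4 to 58.4. B830012L14Rik in fibroblast-like cells was 109 in that control against 167 to 191. Cdkn1c in T-like cells was 41.4 in the day 2, round 1 expanded library against 6.33 to 15.2. Of its 29 UMIs there, 23 lay in 1 cell of 112.

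The difference between arms was unlike in some pairs of cell classes. The log2 ratio of fibroblast-like to Schwann-like cells changed by -2.26 for Meg3 and -2.20 for Rian, and that to smooth muscle-like cells by -1.51 and -1.21. The genes were chosen with the fibroblast values in view, so these values are a description and no test supports them.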

How the results depend on the processing

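In fibroblast-like cells the 4 noncoding RNAs were called lower under every alternative run, and Meg3 ranged from -2.05 (finer clusters) to -2.54 (imprinted genes left out of the variable genes). These runs use the same samples that were in view when the genes were chosen, so they are a description too. With cells thinned to 2000 UMIs, the genes called went from 3763 to 2181 in fibroblast-like, 1707 to 253 in basal keratinocyte-like, 1827 to 639 in dendritic-like, 952 to 272 in endothelial-like, 84 to 15 in hair follicle keratinocyte-like, 775 to 231 in lymphatic endothelial-like, 2483 to 1441 in macrophage or monocyte-like and 1422 to 530 in smooth muscle-like cells, and 0 members were called in basal keratinocyte-like, dendritic-like, endothelial-like, macrophage or monocyte-like and smooth muscle-like cells. The filter on low counts was run again after thinning, so genes and members not called include any that no longer passed it. Thinning also turned Meg3 (0.43) and Rian (0.61) in Schwann-like cells. RLE scaling called 0 members in dermal papilla-like cells. Cdkn1c in fibroblast-like cells, at 0.04, turned to -0.003 with no filter, -0.16 with the unnamed clusters, -0.081 with imprinted genes left out of the variable genes and -0.13 without day 4. The cause of these changes was not tested.

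With the replicate block, which pairs libraries of 1 day and round, Meg3 in fibroblast-like cells was at -2.315. Members called became 2 in dermal papilla-like, 1 in hair follicle keratinocyte-like and 1 in lymphatic endothelial-like cells. Genes called became 260 in hair follicle keratinocyte-like, 82 in Schwann-like and 19 in T-like cells, where Cdkn1c turned to -0.015.

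Leaving out 1 library at a time, genes called ranged from 970 to 1834 in basal keratinocyte-like, 911 to 2189 in dendritic-like, 77 to 280 in dermal papilla-like, 522 to 976 in endothelial-like, 12 to 141 in hair follicle keratinocyte-like, 220 to 784 in lymphatic endothelial-like, 1388 to 2886 in macrophage or monocyte-like, 15 to 75 in melanocyte-like, 3 to 49 in Schwann-like, 645 to 1326 in smooth muscle-like and 3 to 18 in T-like cells. Members called ranged from 0 to 1 in dermal papilla-like, hair follicle keratinocyte-like and T-like cells, 0 to 2 in lymphatic endothelial-like, 1 to 2 in macrophage or monocyte-like and 0 to 3 in smooth muscle-like cells. Uncalled log2 differences that changed sign ranged from -0.13 to 0.16 for Cdkn1c in fibroblast-like, -0.06 to 0.53 in hair follicle keratinocyte-like, -0.019 to 0.44 in smooth muscle-like and -0.43 to 0.68 in T-like cells, from -0.31 to 0.043 for Igf2 in dermal papilla-like cells, and in Schwann-like cells from -0.20 to 0.069 for Meg3 and -0.498 to 0.17 for Rian.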
